A study of Mus musculus with 16 samples.

Results

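Livers of mice that received Semaglutide were compared with livers of mice that reached an equivalent weight loss by calorie restriction, to ask how a drug-treated liver differs from a dieted liver when weight loss is matched. The comparison took the 4 libraries titled Semaglutide (numbers 11, 15, 31 and 51) and the 4 titled calorie restricted (7, 8, 52 and 79), so 8 of the 16 libraries of the study. The study profiled polyadenylated liver RNA of obese C57BL/6 mice by strand-preserving sequencing. All animals were 22 weeks old and had hepatic steatosis on top of diet-induced obesity, the calorie-restricted and the vehicle-treated mice included. The Semaglutide group received the drug, a peptide that switches on GLP1R, the receptor of the gut hormone GLP-1. The calorie-restricted group was set against it with less food as its treatment. The obese baseline was given by 4 vehicle libraries titled saline control (35, 50, 73 and 78). A further 4 libraries, of the co-agonist Dicretin, entered the fit and are not described here. Sex, dose, treatment length, diet, feeding schedule and the hour at which livers were taken are not given in the sources used here.

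GLP1R agonists lower food intake by acting on the brain and raise insulin release from the pancreas, while hepatocytes are generally held to carry little or no GLP1R. A mouse on a restricted ration tends to eat its food soon after it is given and then fasts until the next ration. The liver holds a circadian clock, a loop in which BMAL1 (gene Arntl) and CLOCK switch on their own repressors, and in the rodent liver that clock takes its phase largely from the time of feeding. Many hepatic genes of glucose, amino acid, bile acid and cholesterol metabolism follow the clock, the fed state, or both.

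Each library held 14710396 to 15654460 counts assigned to genes in the Semaglutide group and 13500683 to 18755393 in the calorie-restricted group. Levels are in CPM, the counts of a gene set to a common library total with trimmed-mean (TMM) factors and not to gene length. The log2 fold changes are Semaglutide over calorie restricted ± SE, and the adjusted p-values (Benjamini-Hochberg, over 12910 genes) come from the quasi-likelihood test of edgeR. A gene passed at an adjusted p under 0.05. Values written with ± and an adjusted p are log2 fold changes throughout. Per-library values are given in the order 11, 15, 31, 51 for Semaglutide and 7, 8, 52, 79 for calorie restriction. Albumin took 8.594% to 9.467% of counts in the Semaglutide libraries and 9.249% to 12.05% in the calorie-restricted ones, and all 13 hepatocyte markers were above the filter on low counts, which matches the tissue label. Glp1r had 3 counts over all 16 libraries, all of them in calorie-restricted library 79, and was not tested. Semaglutide library 11 stood apart. On the axis that held 38.23% of the variance among the 8 libraries it lay at -65.88, the other Semaglutide libraries between -24.76 and -6.753, and the calorie-restricted libraries between 19.17 and 30.24. It also carried more short transcripts, and results that rest on it are given with and without it. Calorie-restricted library 79 lay outside its group for several genes named below. The labels do not say that the libraries came from separate cages or batches, so the p-values measure the spread between these libraries only. In whole liver, fewer cells of a type and less RNA per cell cannot be told apart.

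Of the 12910 genes, 790 passed, or 6.12%, with 394 higher (3.05%) and 396 lower (3.07%) in Semaglutide livers. Differences of at least 2-fold were found in 183 of the higher genes (1.42% of all tested) and 175 of the lower ones (1.36%). The median log2 fold change over all genes was 0.003. The number of genes passing moved to 503 without Semaglutide library 11, to 493 without Semaglutide library 31, to 445 without calorie-restricted library 7 and to 460 without calorie-restricted library 52. In the same fit 539 genes (4.18%) passed between Semaglutide and saline and 972 (7.53%) between calorie restriction and saline. Those comparisons share libraries with the main one, and they are used only to place single genes against the obese baseline.

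**Figure D1:**
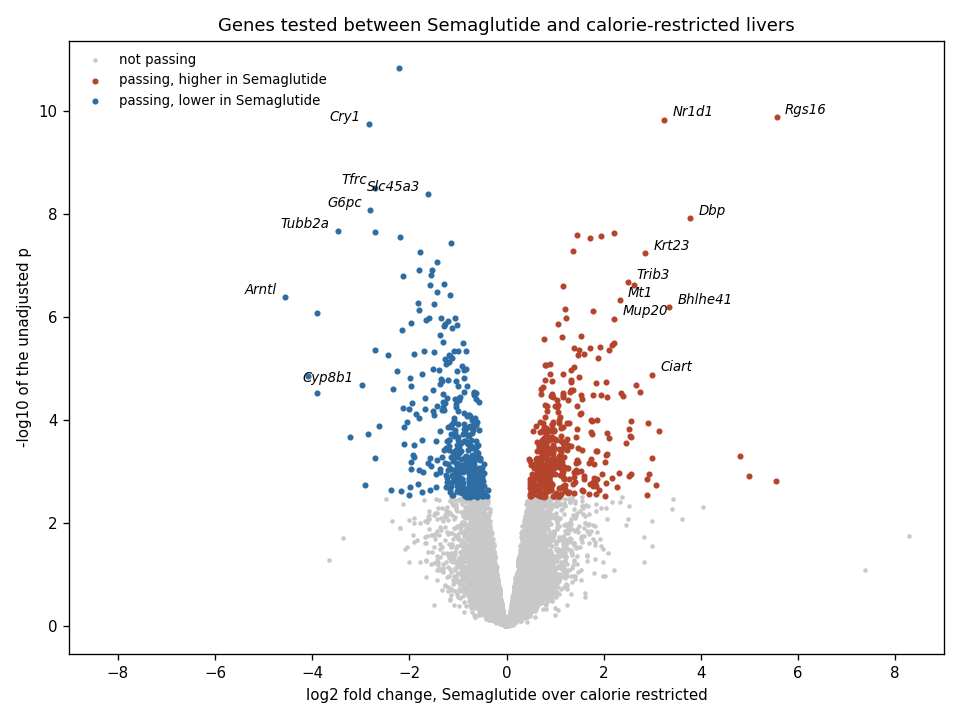
Each point is a gene tested, with the log2 fold change of Semaglutide over calorie restricted on the x axis and the -log10 of its unadjusted p on the y axis. Red genes passed and were higher, blue genes passed and were lower. Rgs16 and the clock genes Nr1d1 and Dbp lie at the upper right, and Cry1, Tfrc, G6pc and Arntl on the left.

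The core clock was the gene list with the highest share of passing members. Of 18 core clock genes tested, 12 passed, 7 higher and 5 lower in Semaglutide livers, beside 6.12% of all genes. The genes that were higher were the repressors Nr1d1, Nr1d2, Ciart and Bhlhe41, the period gene Per3 and the D-box activators Dbp and Tef. Those that were lower included the activators Arntl and Clock and the repressors Cry1 and Nfil3. With members on both sides, the median over the list was 0.02. Of the 18 genes, 6 had all Semaglutide libraries above all calorie-restricted ones, beside 7.45% of all genes, and 6 had them below, beside 8.13%. Clock, Tef, Per3 and the 6 clock genes that did not pass fall outside the rule by which genes were named and were added after their values were seen, as were Upp2 and Ugt2b38 below.

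The 250 bases upstream of the RefSeq start (GRCm38.p6) of these genes were read on both strands for 3 motifs. They were the E-box bound by CLOCK and BMAL1 (CACGTG), the D-box bound by DBP, TEF and NFIL3 (TTATGTAA or TTATGCAA) and the core of the element bound by REV-ERB proteins (TAGGTCA). Among 32851 mouse windows of this length, 6.02% held the E-box, 1.5% the D-box and 2.23% the REV-ERB core. The E-box was present for 3 of the 7 higher genes and 1 of the 4 lower genes with a window. Among the clock genes that did not pass, 4 had a window, and that of Per1 held both an E-box and a D-box. Of the genes that passed, the D-box was present for Per3 and the REV-ERB core for Nfil3, and the windows of Arntl, Clock, Nr1d1, Nr1d2 and Dbp held none of these letters. The windows of Ciart, with 3 E-boxes, of Per3, with 2 D-boxes, and of Cry1, with 1 E-box, are shown because they hold matches in genes that were higher (Ciart and Per3) and lower (Cry1). Each lies on the minus strand, is written 5′ to 3′ in the direction of transcription, and has the matches in capitals. The positions are chr3:95882229-95882478 for Ciart, chr4:151044666-151044915 for Per3 and chr10:85185055-85185304 for Cry1.
Ciart: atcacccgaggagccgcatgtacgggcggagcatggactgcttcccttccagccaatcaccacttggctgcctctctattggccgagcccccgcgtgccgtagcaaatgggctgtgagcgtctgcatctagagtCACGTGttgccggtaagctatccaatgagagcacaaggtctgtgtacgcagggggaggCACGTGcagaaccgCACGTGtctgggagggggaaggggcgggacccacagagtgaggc
Per3: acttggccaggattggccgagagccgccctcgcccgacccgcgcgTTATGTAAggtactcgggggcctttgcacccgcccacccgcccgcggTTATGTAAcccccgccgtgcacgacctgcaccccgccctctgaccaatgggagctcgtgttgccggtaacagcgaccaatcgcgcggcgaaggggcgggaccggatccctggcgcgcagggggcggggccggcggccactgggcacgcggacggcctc
Cry1: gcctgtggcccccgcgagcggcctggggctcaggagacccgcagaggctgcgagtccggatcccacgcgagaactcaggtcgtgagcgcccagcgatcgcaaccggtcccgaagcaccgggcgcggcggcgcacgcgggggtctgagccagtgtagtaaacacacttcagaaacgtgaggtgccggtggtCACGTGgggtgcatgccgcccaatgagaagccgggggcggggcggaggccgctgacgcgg
A match describes these letters only and says nothing of what was bound in these livers.

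The E-box activators Arntl and Clock were lower under Semaglutide. Arntl, which encodes BMAL1, was at 0.225, 0.414, 0.518 and 2.57 CPM in the Semaglutide livers, against 18.3, 13.1, 25.8 and 33.8 CPM in the calorie-restricted livers. The groups did not overlap, Semaglutide library 51 lay above its 3 mates, and the log2 fold change was -4.56 ± 0.58 (adjusted p = 0.000167). Saline livers had 1.29, 1.86, 1.7 and 0.331 CPM of Arntl, which overlapped the Semaglutide range and lay below every calorie-restricted library. The log2 fold change against saline was -0.47 ± 0.63 (adjusted p = 0.735) for Semaglutide and 4.09 ± 0.56 (adjusted p = 0.000262) for calorie restriction. Clock, the partner of BMAL1, was at 11.1, 12.1, 16 and 23 CPM in the Semaglutide livers, against 31.7, 30.2, 42.4 and 44.8 CPM in the calorie-restricted livers, again without overlap, and its log2 fold change was -1.26 ± 0.24 (adjusted p = 0.00366). Npas2, which can stand in for CLOCK, was too low to test, with 1, 3, 2 and 0 counts in the Semaglutide libraries and 0, 0, 11 and 45 counts in the calorie-restricted libraries, the highest in library 79.

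The repressors of the loop lay on both sides. Nr1d1, which encodes REV-ERB alpha and represses Arntl, was at 40.6, 67.5, 57 and 114 CPM in the Semaglutide livers, against 6.6, 7.33, 8.37 and 7.01 CPM in the calorie-restricted livers. Every Semaglutide library exceeded every calorie-restricted one at least several fold, with a log2 fold change of 3.25 ± 0.26 (adjusted p = 5.91e-07). Saline livers held 34, 25.7, 38.7 and 31.1 CPM, between the groups, and both differed from them, with 1.11 ± 0.23 (adjusted p = 0.00949) for Semaglutide and -2.14 ± 0.25 (adjusted p = 3.74e-05) for calorie restriction. Its relative Nr1d2 was at 136, 132, 121 and 112 CPM in the Semaglutide livers, against 41.2, 42.8, 44.6 and 23.4 CPM in the calorie-restricted livers, with calorie-restricted library 79 below its 3 mates, and had a log2 fold change of 1.72 ± 0.19 (adjusted p = 2.51e-05). Ciart, a repressor of the CLOCK and BMAL1 pair, was at 17, 26, 25.7 and 9.27 CPM in the Semaglutide livers, against 1.81, 5.35, 1.88 and 0.868 CPM in the calorie-restricted livers, and its log2 fold change was 3.0 ± 0.50 (adjusted p = 0.0017). Bhlhe41, which competes for E-boxes, was at 4.05, 5.8, 7.45 and 9.95 CPM in the Semaglutide livers, against 1.23, 0.764, 0.576 and 0.0668 CPM in the calorie-restricted livers. The value in calorie-restricted library 79 was the lowest of the 8, and the log2 fold change was 3.35 ± 0.45 (adjusted p = 0.000229). Cry1, the cryptochrome that closes the loop, went the other way and was at 7.88, 10.1, 7.06 and 6.14 CPM in the Semaglutide livers, against 51, 41.9, 64.7 and 65 CPM in the calorie-restricted livers. The ranges lay far apart, its log2 fold change was -2.83 ± 0.23 (adjusted p = 5.91e-07), and Semaglutide livers were near saline (10.5, 13.7, 8.91 and 9.26 CPM). The related Cry2, at 22.2 to 38.7 CPM in the Semaglutide livers and 28.5 to 33.1 CPM in the calorie-restricted livers, did not pass and its groups overlapped.

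Clock factors that read out the loop through D-boxes were also opposed. Dbp, an activator at D-boxes, was at 119, 148, 139 and 134 CPM in the Semaglutide livers, against 11.6, 15.2, 9.16 and 3.54 CPM in the calorie-restricted livers. This is a 13.7-fold higher level, with a log2 fold change of 3.78 ± 0.38 (adjusted p = 1.96e-05). Nfil3, which represses through the same element, was at 19.9, 17.9, 14.8 and 20.2 CPM in the Semaglutide livers, against 36.1, 41.4, 47.1 and 79.8 CPM in the calorie-restricted livers, without overlap, and had a log2 fold change of -1.49 ± 0.23 (adjusted p = 0.000859). Tef, another D-box activator, was at 141 to 208 CPM in the Semaglutide livers and 72.3 to 122 CPM in the calorie-restricted livers and had a log2 fold change of 0.76 ± 0.19 (adjusted p = 0.0218), while a further one, Hlf, did not pass (-0.43, adjusted p = 0.157). Per3, a period gene, had overlapping groups at 20.9, 47.8, 32.7 and 31.5 CPM with Semaglutide and 16.9, 21.5, 11.5 and 6.48 CPM with calorie restriction and a log2 fold change of 1.24 ± 0.31 (adjusted p = 0.0232). Tef lost its call without Semaglutide library 15 or 31 or calorie-restricted library 8 or 79, with an adjusted p up to 0.0707. Per3 lost it without Semaglutide library 15 or 31 or calorie-restricted library 52 or 79 and when only the 2 groups were fitted, with an adjusted p up to 0.082. The count of higher clock genes was 5 in the lowest of the fits without 1 library, and the count of lower clock genes was 5 in all 8 of them.

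The remaining members did not pass. Per2, the period gene that also responds directly to feeding and glucocorticoids, was at 15.7, 30, 19.7 and 17.9 CPM with Semaglutide and 34.6, 46.2, 26.2 and 13.3 CPM with calorie restriction, and the adjusted p was 0.361. Per1 had a log2 fold change of 0.16 (95% interval -0.41 to 0.74), Bhlhe40 of 0.01 (-0.42 to 0.44), Cry2 of 0.03 (-0.40 to 0.46) and Rora of -0.40 (-0.88 to 0.08). The intervals of Bhlhe40 and Cry2 end short of the 0.76 of Tef, and that of Rora reaches past this size on the lower side. The upper end of Per1, 0.74, is too near 0.76 to be told apart from it, since these intervals are somewhat too narrow.

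**Figure D2:**
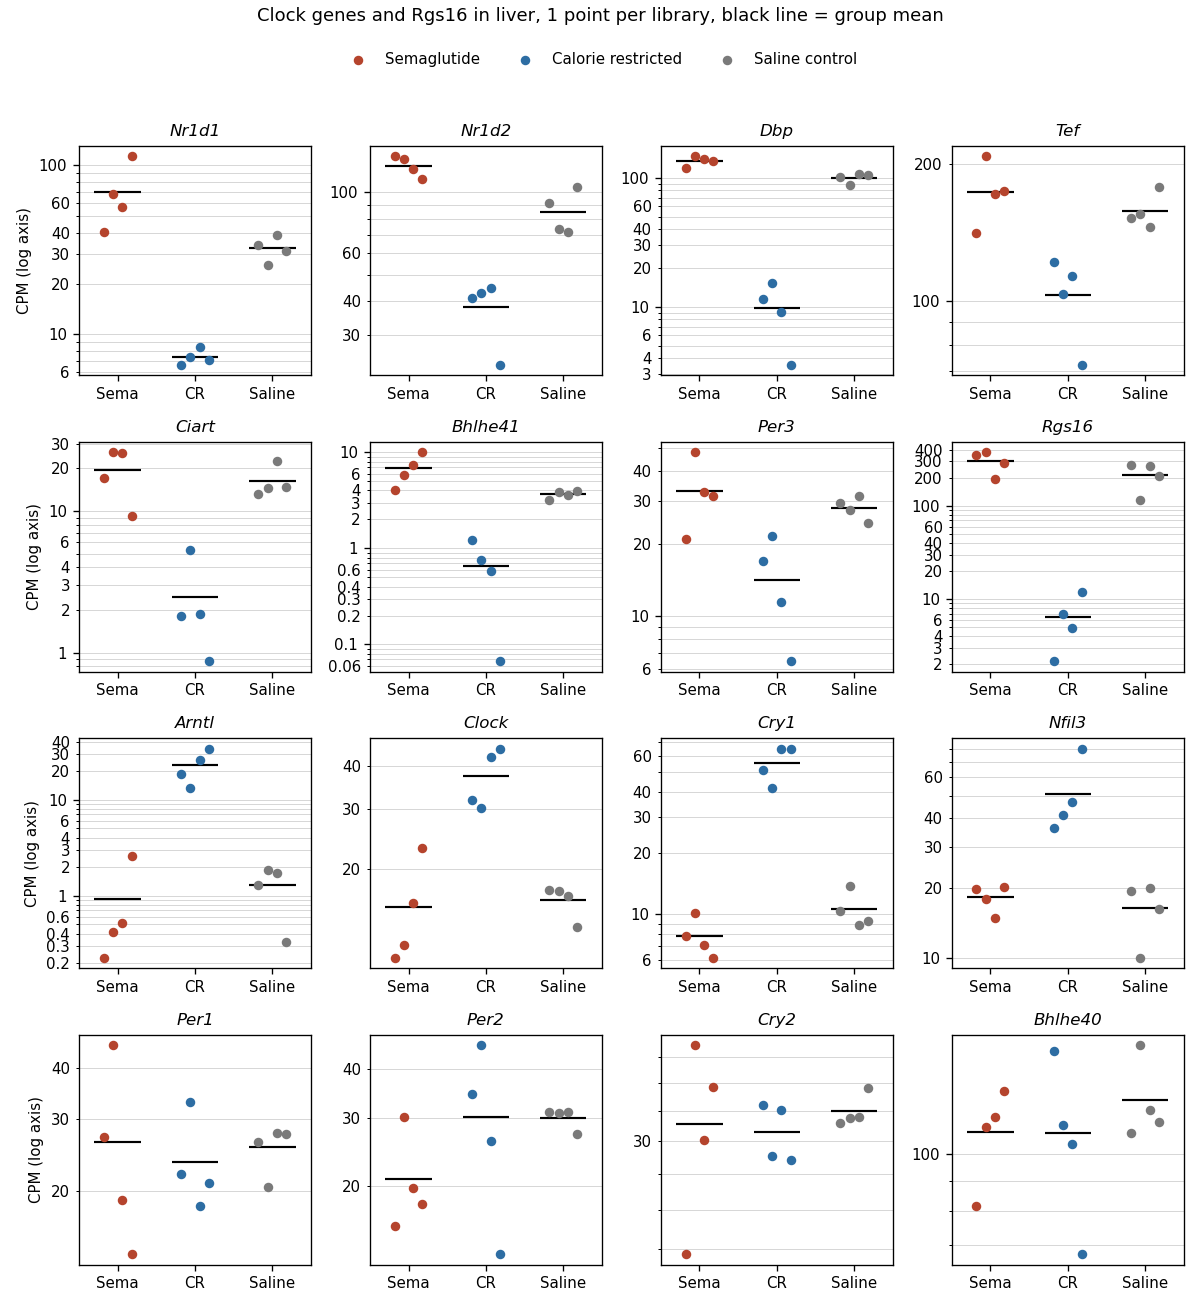
CPM on a log axis in each Semaglutide, calorie-restricted and saline library (1 point each, black line for the group mean) for 15 clock genes and Rgs16. Semaglutide points lie above the calorie-restricted ones for Nr1d1, Nr1d2, Dbp, Tef, Ciart, Bhlhe41 and Rgs16 and below them for Arntl, Clock, Cry1 and Nfil3, while Per3 and the genes that did not pass overlap.

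Genes known to follow the clock and the feeding rhythm were tested as a further list. Of 28 tested, 5 passed as higher and 8 as lower, beside 3.05% and 3.07% of all genes, the shares beside which the counts of the lists below stand as well. The largest increase among all named genes was in Rgs16, a brake on G-protein signalling. It was at 352, 374, 195 and 286 CPM in the Semaglutide livers, against 2.16, 6.87, 4.87 and 11.9 CPM in the calorie-restricted livers. Saline livers had 272, 115, 271 and 209 CPM, so the low level was in the calorie-restricted livers. Against saline the log2 fold change was 0.48 ± 0.34 (adjusted p = 0.481) for Semaglutide and -5.08 ± 0.42 (adjusted p = 1.34e-06) for calorie restriction. The log2 fold change between the treatments was 5.56 ± 0.43 (adjusted p = 5.91e-07). Upp2, the liver uridine phosphorylase, was at 757, 953, 516 and 499 CPM in the Semaglutide livers, against 144, 231, 128 and 128 CPM in the calorie-restricted livers and was higher by 2.11 ± 0.33 (adjusted p = 0.000822), and calorie-restricted library 8 was the highest of its group. Klf10, a zinc-finger repressor, was also higher, at 23.2 to 57.2 CPM in the Semaglutide livers and 8.35 to 13.5 CPM in the calorie-restricted livers, with a log2 fold change of 1.71 ± 0.27 (adjusted p = 0.000791). In the other direction lay Slc45a3, a solute carrier, at 12.5, 10.9, 12.6 and 15.3 CPM with Semaglutide and 30.4, 34.7, 44.4 and 47.9 CPM with calorie restriction (-1.61, adjusted p = 8.95e-06), and Leo1, a subunit of the PAF1 elongation complex, at 7.5, 7.73, 9.14 and 13.6 CPM with Semaglutide and 28.2, 31.6, 24.8 and 26 CPM with calorie restriction (-1.54, adjusted p = 7.12e-05). Insig2, which holds the sterol regulatory proteins in the endoplasmic reticulum, had a log2 fold change of -1.28 ± 0.18 (adjusted p = 0.000371). None of these genes had overlapping groups, and each kept its call in all 17 alternatives tried. Elovl3, a fatty acid elongase with a strong daily rhythm in mouse liver, was at 35.9, 27.1, 16.7 and 101 CPM in the Semaglutide livers, against 240.3, 273, 210.1 and 454 CPM in the calorie-restricted livers. Its log2 fold change was -2.7 ± 0.62 (adjusted p = 0.018), and the call was lost without Semaglutide library 11 and without the filter on low counts (adjusted p up to 0.085). The count of lower genes was 6 without Semaglutide library 11.

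The 12 largest increases and 12 largest decreases, among genes with separate groups and at least 2 CPM, went beyond the clock. The increases held the 4 major urinary protein genes Mup15, Mup16, Mup17 and Mup18, which encode secreted pheromone carriers. Mup16 was at 121, 131, 65.7 and 90.1 CPM in the Semaglutide livers, against 14.1, 20.1, 6.59 and 13.2 CPM in the calorie-restricted livers, with a log2 fold change of 2.92 ± 0.57 (adjusted p = 0.00703). Mup15 was at 188 to 561 CPM in the Semaglutide livers and 1.87 to 16.5 CPM in the calorie-restricted livers, and its log2 fold change was 5.54 ± 1.38 (adjusted p = 0.0325). Mup17 was at 453 to 877 CPM in the Semaglutide livers and 6.66 to 54.4 CPM in the calorie-restricted livers, and its log2 fold change was 4.8 ± 1.05 (adjusted p = 0.0173). Mup genes are near-identical copies, so how reads were divided among them is uncertain, and saline libraries spread widely, at 94.1, 468, 82.5 and 514 CPM for Mup17. Mup15, Mup17 and Mup18 lost their calls in some fits without 1 library (adjusted p up to 0.101, 0.0555 and 0.096). This held for Mup15 without any of Semaglutide 11, 15 and 31 or of the 4 calorie-restricted libraries. It held for Mup17 without calorie-restricted 7, 52 or 79, and for Mup18 without Semaglutide 11 or 31 or any calorie-restricted library. Mup16 kept its call in all.

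Krt23, a keratin that is raised in fatty and injured liver, was at 13.2, 8.84, 8.36 and 8.64 CPM in the Semaglutide livers, against 1.05, 0.917, 1.2 and 2.2 CPM in the calorie-restricted livers. Both treatments were below saline (18.8, 22.3, 27.1 and 15.5 CPM), with log2 fold changes of -1.1 ± 0.28 (adjusted p = 0.0319) for Semaglutide and -3.96 ± 0.33 (adjusted p = 1.34e-06) for calorie restriction. The Semaglutide level was higher than the calorie-restricted one by 2.85 ± 0.33 (adjusted p = 3.89e-05). Maff, a small Maf transcription factor, was at 13.3, 14.2, 9.98 and 7.51 CPM in the Semaglutide livers, against 1.34, 1.45, 1.88 and 2.54 CPM in the calorie-restricted livers with a log2 fold change of 2.63 ± 0.33 (adjusted p = 0.000112). Among the decreases, Tubb2a, a beta-tubulin, was at 10.9, 9.39, 6.93 and 13.7 CPM in the Semaglutide livers, against 91.9, 90.2, 128 and 147 CPM in the calorie-restricted livers. It was 11.1-fold lower, with a log2 fold change of -3.48 ± 0.37 (adjusted p = 2.51e-05). Nat8f5, of an N-acetyltransferase family, was at 1.8, 2.35, 2.46 and 0.313 CPM in the Semaglutide livers, against 35.3, 47.8, 25.2 and 9.15 CPM in the calorie-restricted livers. Lrfn3, a cell adhesion protein, was at 1.57, 1.38, 2.46 and 1.13 CPM in the Semaglutide livers, against 8.12, 8.78, 9.89 and 16.1 CPM in the calorie-restricted livers. Their log2 fold changes were -4.09 ± 0.66 (adjusted p = 0.00177) and -2.7 ± 0.29 (adjusted p = 2.51e-05). Fam222a was lower, with a log2 fold change of -2.72 ± 0.42 (adjusted p = 0.000822) at a low level, 0.075 to 1.0 CPM in the Semaglutide livers and 2.2 to 7.35 CPM in the calorie-restricted livers. Pitx3, a homeobox factor, and Cyp2a22, a cytochrome P450, completed the decreases with log2 fold changes of -3.22 ± 0.70 (adjusted p = 0.0102) and -2.85 ± 0.59 (adjusted p = 0.00936). Pitx3 lost its call without calorie-restricted library 79 (adjusted p 0.0536) and Cyp2a22 without Semaglutide library 11 (adjusted p 0.0513). Tubb2a, Nat8f5, Cyp2a22 and Ugt2b38 also have close relatives that could share reads. Most of the rest of the 24 are described with their pathways.

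Glucose output genes that passed were lower in Semaglutide livers. G6pc, the catalytic subunit of glucose-6-phosphatase that releases glucose into blood, was at 55.5, 57.2, 116 and 82.5 CPM in the Semaglutide livers, against 709, 545, 571 and 347 CPM in the calorie-restricted livers. All Semaglutide libraries lay below all calorie-restricted ones, and the log2 fold change was -2.8 ± 0.28 (adjusted p = 1.56e-05). Both groups had left the obese baseline of 203, 353, 211 and 275 CPM, in opposite directions, with -1.74 ± 0.27 (adjusted p = 0.0011) for Semaglutide and 1.06 ± 0.27 (adjusted p = 0.0206) for calorie restriction. Of 20 gluconeogenesis genes tested, G6pc and Tat were lower and none was higher, beside the background of 3.07% and 3.05%, and the median was -0.19. Pck1, which encodes the enzyme that draws oxaloacetate into gluconeogenesis, was at 1882, 2569.8, 1340.3 and 1448 CPM with Semaglutide and 1798, 2356, 1869.5 and 2118 CPM with calorie restriction with overlapping groups. Its log2 fold change was -0.17 with a 95% interval of -0.59 to 0.25. Ppargc1a, a coactivator of this programme, had a log2 fold change of -0.39 (-0.69 to -0.08) and an adjusted p of 0.143.

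In the list of glycolysis, glycogen and fructose genes, 2 of 21 were higher and 4 lower, beside 3.05% and 3.07% of all genes. Ppp1r3b and Ppp1r3c, which bring protein phosphatase 1 to glycogen and so activate glycogen synthase, were both lower. Ppp1r3b was at 102, 165, 75.2 and 79.3 CPM in the Semaglutide livers, against 543, 461, 498 and 432 CPM in the calorie-restricted livers, and its log2 fold change was -2.2 ± 0.24 (adjusted p = 2.51e-05). Ppp1r3c was at 45.3, 46.4, 43 and 62.5 CPM in the Semaglutide livers, against 111, 64.5, 198 and 194 CPM in the calorie-restricted livers, with a log2 fold change of -1.52 ± 0.30 (adjusted p = 0.00481). Against saline Ppp1r3c was higher in calorie-restricted livers (2.54 ± 0.31, adjusted p = 5.98e-05). Ugp2, which makes the UDP-glucose used for glycogen, was higher, at 1027, 584, 846 and 684 CPM with Semaglutide and 471, 521, 481 and 326 CPM with calorie restriction and a log2 fold change of 0.80 ± 0.18 (adjusted p = 0.0103). Gys2, the liver glycogen synthase, and the glycolytic Pgk1 and Eno1 also passed with log2 fold changes of 0.70, -0.55 and -0.67, but lost the call without several single libraries (adjusted p up to 0.138, 0.0542 and 0.0937). This was so for Gys2 without Semaglutide 11, 15 or 31 or calorie-restricted 8, 52 or 79. It was so for Pgk1 without Semaglutide 15 or 31 or calorie-restricted 52 or 79, and Eno1 without Semaglutide 11, 15 or 31 or calorie-restricted 7 or 8.

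Cyclic AMP is the messenger of glucagon in hepatocytes. Of 19 genes that respond to it, 4 were lower (G6pc, Nfil3, Tat and Sik1) and none was higher, beside 3.07% and 3.05% of all genes. The median was -0.17. Sik1, a kinase that CREB induces, was at 3.75, 11, 6.29 and 5.07 CPM with Semaglutide and 38.2, 24.7, 28.5 and 9.55 CPM with calorie restriction. Calorie-restricted library 79 fell within the Semaglutide range, and the log2 fold change was -1.95 ± 0.37 (adjusted p = 0.00378). Crem, an early CREB target, was at 28.1, 18.2, 14.1 and 16.1 CPM with Semaglutide and 34.9, 24.8, 23.9 and 30.5 CPM with calorie restriction and did not pass (adjusted p = 0.0807). The glucagon receptor gene Gcgr did not pass either, at 207 to 305 CPM in the Semaglutide livers and 177 to 212 CPM in the calorie-restricted livers and an adjusted p of 0.228. G6pc and Tat stand on the gluconeogenesis list and Nfil3 on the clock list as well, so these counts are not separate.

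Amino acid and nitrogen genes that passed were all lower in Semaglutide livers. Slc25a15, the mitochondrial ornithine carrier of the urea cycle, was at 206, 167, 167 and 230.1 CPM in the Semaglutide livers, against 363, 369, 358 and 345 CPM in the calorie-restricted livers. The 2 ranges were narrow and apart, and the log2 fold change was -0.90 ± 0.14 (adjusted p = 0.000684). Nags, which makes the activator of the first urea cycle enzyme, was lower, with a log2 fold change of -0.57 ± 0.11 (adjusted p = 0.00358), at 56.1, 53.7, 56.8 and 47.3 CPM with Semaglutide and 77.9, 82, 82.8 and 74.2 CPM with calorie restriction. Both genes lay near saline in Semaglutide livers and above it in calorie-restricted livers. The log2 fold changes of Slc25a15 against saline were 0.05 in Semaglutide and 0.94 in calorie-restricted livers. Those of Nags were 0.09 in Semaglutide and 0.66 in calorie-restricted livers. These were the 2 of 11 urea cycle genes that passed, with a list median of -0.21.

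Of 41 amino acid catabolism genes, 6 were lower and none higher, with a median of -0.13. Tat, tyrosine aminotransferase, was at 484, 687, 332 and 337 CPM in the Semaglutide livers, against 1372, 1472, 1063 and 860.0 CPM in the calorie-restricted livers, with a log2 fold change of -1.37 ± 0.24 (adjusted p = 0.00221). Acmsd, which steers tryptophan away from NAD synthesis, was at 11, 9.73, 5.7 and 11.6 CPM in the Semaglutide livers, against 30.8, 23.4, 20.8 and 21.3 CPM in the calorie-restricted livers, with -1.34 ± 0.23 (adjusted p = 0.00203). Gldc, of the glycine cleavage system, was at 56.3, 61.5, 59 and 115 CPM with Semaglutide and 167, 118, 191 and 246 CPM with calorie restriction. Semaglutide library 51 came closest to the calorie-restricted range, and the log2 fold change was -1.31 ± 0.25 (adjusted p = 0.00424). Bhmt, which remethylates homocysteine with betaine, was at 499, 687, 245 and 683 CPM in the Semaglutide livers, against 1569.5, 3621, 1863 and 2264 CPM in the calorie-restricted livers. Saline livers had 4081, 4665, 4369.6 and 3395 CPM. The log2 fold change against saline was -2.97 ± 0.42 (adjusted p = 0.000622) for Semaglutide and -0.83 ± 0.39 (adjusted p = 0.218) for calorie restriction, so only the Semaglutide difference passed. The difference between the treatments was -2.14 ± 0.41 (adjusted p = 0.00439). Oat and Dpyd, of ornithine and pyrimidine breakdown, passed at -0.96 and -0.59 and lost the call in fits without 1 library. Oat lost it without Semaglutide 11 or 31 or calorie-restricted 8, and Dpyd without any of the 8 (adjusted p up to 0.0944 and 0.175). Etnppl, which breaks down phosphoethanolamine and is a periportal gene, was at 57.6, 53.8, 76.1 and 71.3 CPM in the Semaglutide livers, against 297, 189.8, 249 and 172 CPM in the calorie-restricted livers and lower, with a log2 fold change of -1.81 ± 0.22 (adjusted p = 7.12e-05).

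**Figure D3:**
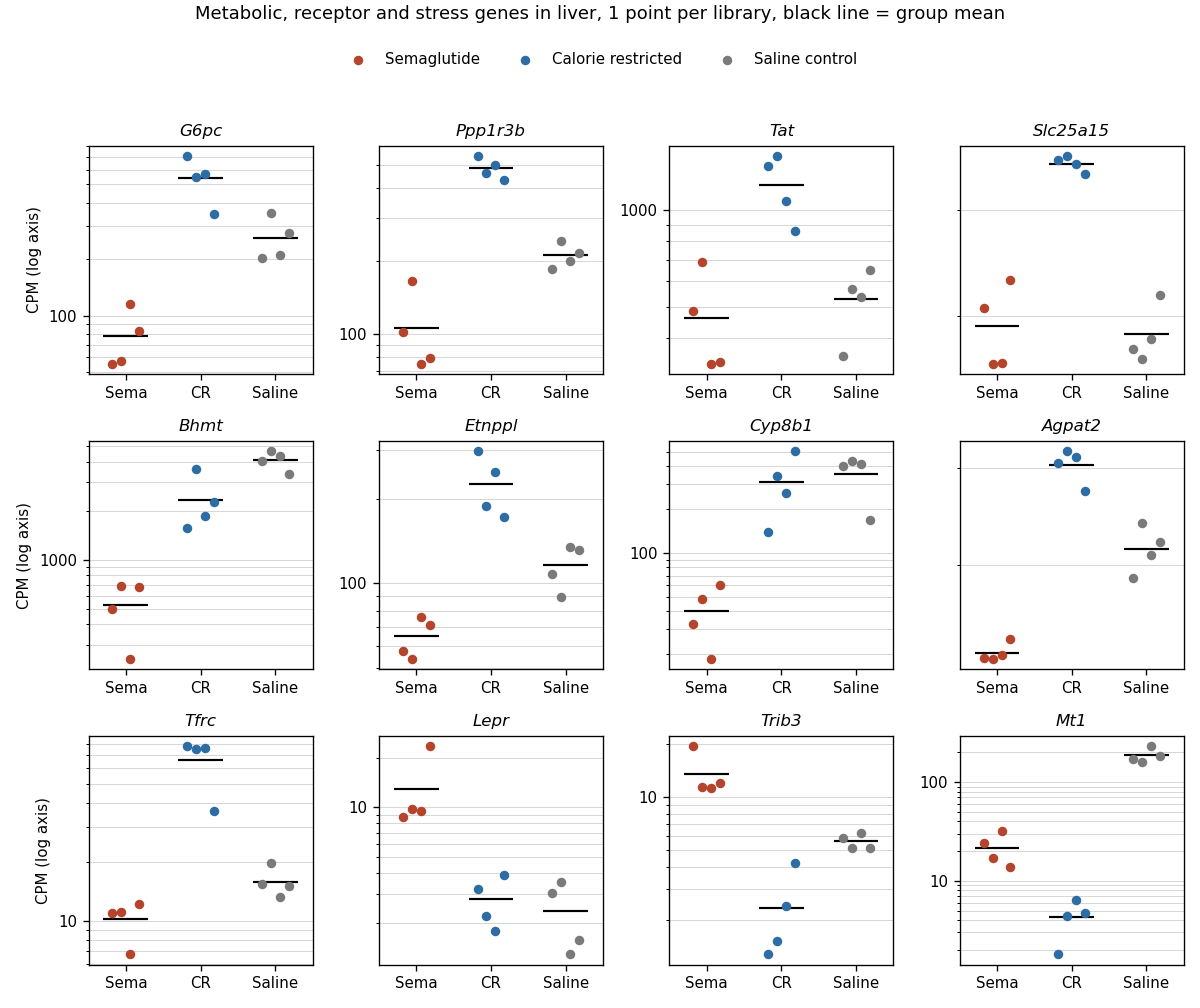
CPM on a log axis in each Semaglutide, calorie-restricted and saline library (1 point each, black line for the group mean) for 12 genes of glucose, nitrogen, lipid, bile acid, iron, receptor and stress functions. The Semaglutide points lie below the calorie-restricted ones for G6pc, Ppp1r3b, Tat, Slc25a15, Bhmt, Etnppl, Cyp8b1, Agpat2 and Tfrc and above them for Lepr, Trib3 and Mt1.

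Lipid storage genes passed in both directions. In triglyceride storage, 2 of 24 members were higher and 3 lower (median -0.09). Agpat2, an acyltransferase on the way to triglyceride, was at 135, 134, 137 and 146 CPM in the Semaglutide livers, against 306, 322, 314 and 273 CPM in the calorie-restricted livers. It was lower without overlap, with a log2 fold change of -1.14 ± 0.13 (adjusted p = 3.00e-05), and saline livers lay between the groups at 189, 238, 208 and 220.2 CPM. Plin3, a lipid droplet coat protein, was at 54.1, 46.2, 56.2 and 52.4 CPM in the Semaglutide livers, against 22.2, 25.7, 23.9 and 27.9 CPM in the calorie-restricted livers and higher by 1.07 ± 0.15 (adjusted p = 0.000356). Pnpla2, the adipose triglyceride lipase that starts droplet breakdown, was at 57.5, 83.5, 88.3 and 83.6 CPM in the Semaglutide livers, against 36.3, 36.1, 34.2 and 56.5 CPM in the calorie-restricted livers. Semaglutide library 11 was the lowest of its group and calorie-restricted library 79 the highest of its own, close to each other. The log2 fold change was 0.94 ± 0.17 (adjusted p = 0.00292). Plin5 and Cd36 passed at -1.11 and -1.13. The calls were lost without any of the 8 libraries for Plin5 and without any but calorie-restricted library 7 for Cd36 (adjusted p up to 0.145 and 0.199). Of all 17 alternatives, Plin5 lost its call in 11 and Cd36 in 13, for both with upper quartile factors and with limma-voom as well. The droplet protein gene Cidec had 2.62, 2.42, 3.82 and 1.69 CPM with Semaglutide and 1.05, 1.22, 3.3 and 1.47 CPM with calorie restriction and overlapped between the treatments, while saline livers had 64.7, 64.6, 47.6 and 19.5 CPM. Both treatments differed from saline, with log2 fold changes of -4.22 ± 0.53 (adjusted p = 0.000264) for Semaglutide and -4.77 ± 0.55 (adjusted p = 5.44e-05) for calorie restriction. Pparg, the nuclear receptor that drives droplet genes in fatty liver, was at 5.85, 8.77, 10.8 and 8.33 CPM with Semaglutide and 9.11, 17, 14 and 11.8 CPM with calorie restriction beside 44.2, 31.5, 33.2 and 25.9 CPM in saline, with an adjusted p of 0.0915 between the treatments.

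Cholesterol synthesis genes had the lowest list median, -1.06 over 25 genes, of which 24 had a negative log2 fold change, 5 passed as lower and none as higher. Srebf2, the master regulator of the pathway, was at 15.6, 27.3, 20 and 31.6 CPM in the Semaglutide livers, against 42, 40.2, 42.4 and 73 CPM in the calorie-restricted livers. The groups did not overlap and the log2 fold change was -1.06 ± 0.23 (adjusted p = 0.00895). Hsd17b7, which acts late in the pathway, was at 31, 39.2, 22.6 and 30.6 CPM with Semaglutide and 54.2, 53.3, 42 and 87.8 CPM with calorie restriction and was lower, with a log2 fold change of -0.94 ± 0.21 (adjusted p = 0.012). Hmgcs1, the synthase at the entry to the pathway, was at 151, 115, 83.7 and 118 CPM with Semaglutide and 207, 218, 193 and 784 CPM with calorie restriction, with calorie-restricted library 79 far above its mates. That library was also the highest for Srebf2, Hsd17b7, Mvd and Sqle. The median of the list was -0.73 to -1.29 over the fits without 1 library. Hmgcs1, Mvd and Sqle passed at -1.59, -1.97 and -2.91, and lost the call in fits without 1 library (adjusted p up to 0.0818, 0.0824 and 0.128). Hmgcs1 lost it without Semaglutide 11 or 31, Mvd without Semaglutide 31 or calorie-restricted 79, and Sqle without any but calorie-restricted 52. The number of lower members ran from 2, without Semaglutide library 31, to 12 over those fits.

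Fatty acid synthesis genes had a negative median. The median of 22 de novo lipogenesis genes was -0.80, 19 had a negative log2 fold change, and 2 passed as lower. Those were Acly, which makes cytosolic acetyl-CoA, at 129, 169, 99.5 and 174 CPM with Semaglutide and 769, 411, 257 and 242 CPM with calorie restriction (-1.56 ± 0.38, adjusted p = 0.0219), and Elovl5, an elongase of polyunsaturated fatty acids, with -1.24 ± 0.32 (adjusted p = 0.0271). Neither passed without Semaglutide library 11 or 31 or calorie-restricted library 7, and Elovl5 was also lost without calorie-restricted 8 or 79 (adjusted p up to 0.0997 and 0.0959). Fasn, the fatty acid synthase, spread within both groups, at 129.6, 309, 97.4 and 171 CPM with Semaglutide and 730.2, 619, 169.6 and 264 CPM with calorie restriction. Scd1, the stearoyl-CoA desaturase, did likewise, at 1344, 2470.3, 1007 and 778 CPM with Semaglutide and 7319, 6017, 2898 and 1394 CPM with calorie restriction. Their adjusted p were 0.431 and 0.32. Srebf1, their regulator, had a log2 fold change of 0.00 (-0.66 to 0.67).

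Fat oxidation genes passed at a share near that of all genes. None of 22 mitochondrial oxidation and ketogenesis genes passed in the edgeR test, beside 6.12% of all genes, with a median of 0.03 and log2 fold changes from -0.54 to 0.52. An unadjusted p under 0.05 was found for 3 of the 22, beside 2991, or 23.2%, of all genes, and the DESeq2 Wald test called 1 of them. Of 21 peroxisomal genes 1 was lower and 1 higher. Abcd3, an importer of acyl-CoA, was lower, at 512, 570.4, 455 and 504 CPM in the Semaglutide livers, against 835, 778, 793 and 864 CPM in the calorie-restricted livers, with a log2 fold change of -0.68 ± 0.12 (adjusted p = 0.00286). Eci2, an isomerase, was higher at 0.79 and lost the call without Semaglutide library 11 or 31 or calorie-restricted library 7 or 52 (adjusted p up to 0.0808). Among 21 fasting targets of PPAR alpha, the lipid sensor that drives oxidation in the fasted liver, 1 was higher and 1 lower. The higher one was Txnip, a redox and glucose-uptake regulator (1.18), lost without Semaglutide library 11 or calorie-restricted library 7, 8 or 52. The lower one was Pdk4, the kinase that spares glucose in fasting (-2.0), lost without Semaglutide library 11, 31 or 51 or calorie-restricted library 7, 52 or 79, with adjusted p up to 0.0618 and 0.137.

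The bile acid synthesis enzymes that passed, Cyp8b1 and Akr1d1, were lower. Cyp8b1, the sterol 12-hydroxylase needed for cholic acid, was at 32.3, 47.9, 18.6 and 60.1 CPM in the Semaglutide livers, against 140.2, 339, 259.9 and 505 CPM in the calorie-restricted livers. Semaglutide libraries were lower without overlap, with a log2 fold change of -2.97 ± 0.50 (adjusted p = 0.00233). Saline livers had 397, 434, 410.5 and 169 CPM. The log2 fold change against them was -3.15 ± 0.50 (adjusted p = 0.00215) for Semaglutide and -0.18 ± 0.46 (adjusted p = 0.856) for calorie restriction. Akr1d1, the 5-beta-reductase of the same pathway, was at 218, 220.2, 138 and 169 CPM in the Semaglutide livers, against 308, 358, 396 and 318 CPM in the calorie-restricted livers, lower, with a log2 fold change of -0.89 ± 0.19 (adjusted p = 0.00911). Cyp7a1, the rate-limiting enzyme, was at 33.2, 94.1, 29.7 and 51.8 CPM with Semaglutide and 186, 363, 278 and 84 CPM with calorie restriction and missed the threshold (log2 fold change -2.12, adjusted p = 0.0593). Of 28 genes of bile acid synthesis and transport, 3 were lower and 1 higher, with a median near 0. The other passing members were Fgfr4, the receptor for the gut hormone that represses bile acid synthesis (-0.76), and Slco1b2, an uptake transporter (0.68). Fgfr4 lost the call without Semaglutide 11 or 31 or calorie-restricted 7 or 79 and Slco1b2 without Semaglutide 11 or 31 or calorie-restricted 7, 8 or 79 (adjusted p up to 0.0701 and 0.0894).

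Among genes with male-biased expression, many of them driven by the pulsatile growth hormone of male mice, most of those that passed were higher in Semaglutide livers. Of 23 tested, 8 were higher and 1 (Elovl3) lower, and the median was 1.11, beside 0.003 over all genes. Mup20, or darcin, a male urinary pheromone, was at 15652, 7358, 9394 and 6697 CPM in the Semaglutide livers, against 2554, 2937, 1515 and 1388 CPM in the calorie-restricted livers. It was higher without overlap, by 2.22 ± 0.31 (adjusted p = 0.000308), and saline livers were at 4622, 5153, 2653 and 6003 CPM. Mup11 was at 1561, 1787, 1010.4 and 1391 CPM in the Semaglutide livers, against 191, 374, 132 and 278 CPM in the calorie-restricted livers, with a log2 fold change of 2.56 ± 0.50 (adjusted p = 0.00664). Mup3 was at 23909, 13916, 12410.0 and 12048 CPM in the Semaglutide livers, against 7872, 9031, 5852 and 6041 CPM in the calorie-restricted livers, with 1.11 ± 0.23 (adjusted p = 0.00798). For both, Semaglutide livers were above saline (2.66 and 1.04 on the log2 scale) and calorie-restricted livers near it (0.09 and -0.07). Keg1, a glycine acyltransferase relative, was at 194, 149, 178 and 177 CPM with Semaglutide and 98.6, 84.8, 47.4 and 79.5 CPM with calorie restriction and higher by 1.17 ± 0.27 (adjusted p = 0.0136), a call lost without calorie-restricted library 52 (adjusted p 0.0526). Mup12, Mup17 and Ugt2b38 passed at 2.07, 4.8 and 2.52. The calls were lost without Semaglutide 11 or calorie-restricted 52 for Mup12, without calorie-restricted 7, 52 or 79 for Mup17, and without Semaglutide 31 or 51 or calorie-restricted 8, 52 or 79 for Ugt2b38. The count of higher members was as low as 3, without calorie-restricted library 52, while the median stayed between 0.99 and 1.31. Semaglutide library 11, which carried more short transcripts, was the highest of its group for Mup3, Mup15, Mup18 and Mup20 but not for Mup11, Mup16 or Mup17. Without that library 6 members were higher and the median was 1.05. Several members are Mup copies that share reads, so the list counts some reads more than once.

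Over 15 female-biased genes tested the median was -0.28. In the growth hormone and IGF axis 1 of 19 genes was higher (Igfbp2, an IGF-binding protein, 1.11) and 1 lower (Prlr, the prolactin receptor, -0.72). Igfbp2 was at 1492, 936, 1013 and 734 CPM with Semaglutide and 636, 424, 326 and 553 CPM with calorie restriction beside 152, 227, 358 and 475 CPM in saline. The call for Igfbp2 was lost without Semaglutide 11, 15 or 31 or calorie-restricted 8, 52 or 79 and that for Prlr without Semaglutide 11 or 31 or calorie-restricted 52 or 79 (adjusted p up to 0.151 and 0.0985).

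Receptors and secreted factors differed in both directions. Lepr, the leptin receptor, was at 8.7, 9.8, 9.53 and 23.4 CPM in the Semaglutide livers, against 3.21, 2.21, 1.78 and 3.87 CPM in the calorie-restricted livers. Semaglutide library 51 lay far above its mates, all 4 were above every calorie-restricted library, and the log2 fold change was 2.22 ± 0.34 (adjusted p = 0.000684). Semaglutide livers were above saline for Lepr (2.42 ± 0.34, adjusted p = 0.000564) and calorie-restricted livers near it (0.20 ± 0.37, adjusted p = 0.797). Inhbc, which encodes activin C of the hepatocyte, was at 59.3, 71.7, 66 and 66.6 CPM in the Semaglutide livers, against 132, 149, 134 and 139 CPM in the calorie-restricted livers and lower, with a log2 fold change of -1.07 ± 0.17 (adjusted p = 0.000822). Esr1, the estrogen receptor, was at 5.33, 15.9, 5.25 and 7.33 CPM with Semaglutide and 33.6, 25.9, 24 and 24.6 CPM with calorie restriction and lower, with a log2 fold change of -1.68 ± 0.31 (adjusted p = 0.00316). Of a panel of 26 metabolic genes, hormones and receptors kept for naming, 3 were higher (Nr1d1, Lepr and Igfbp2) and 3 lower (G6pc, Cyp8b1 and Cd36). The calls of Igfbp2 and Cd36 were lost in several fits, as given above. Of 33 secreted hormones and metabolic receptors 1 was higher and 4 lower, with Adra1b and Avpr1a, receptors for noradrenaline and vasopressin, as the others (-0.77 and -0.95). Avpr1a was higher than saline (3.09, 4.59, 5.31 and 6.12 CPM) in both treatments, with log2 fold changes of 2.36 ± 0.29 (adjusted p = 0.000152) for Semaglutide and 3.32 ± 0.30 (adjusted p = 3.67e-06) for calorie restriction. The calls between the treatments were lost without any of 6 libraries for Adra1b (all but Semaglutide 15 and 51) and of 7 for Avpr1a (all but calorie-restricted 8), with adjusted p up to 0.0829 and 0.143.

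Where they passed, targets of ATF4 were higher and heat shock chaperones lower in Semaglutide than in calorie-restricted livers, apart from Ddit4. Trib3, a pseudokinase induced by ATF4 that restrains AKT, was at 19.3, 11.3, 11.2 and 11.9 CPM in the Semaglutide livers, against 1.28, 1.53, 2.41 and 4.21 CPM in the calorie-restricted livers. Library 11 was the highest of the Semaglutide group, all 4 exceeded the calorie-restricted libraries, and the log2 fold change was 2.5 ± 0.31 (adjusted p = 0.00011). Chac1, another ATF4 target, which degrades glutathione, was at 7.2, 6.08, 10.2 and 8.7 CPM in the Semaglutide livers, against 0.876, 1.83, 0.576 and 1.87 CPM in the calorie-restricted livers and higher by 2.67 ± 0.47 (adjusted p = 0.00233). Semaglutide livers were near saline for Chac1 (0.33 ± 0.42, adjusted p = 0.708) and calorie-restricted livers below it (-2.34 ± 0.47, adjusted p = 0.00527). The list of integrated stress and unfolded protein response genes did not follow Trib3 and Chac1 as a whole. Of its 26 genes, 11 had a positive and 15 a negative log2 fold change, with a median of -0.24. Of the 26, 3 passed as higher and 1 as lower. Herpud1 (0.86) and Ddit4 (-1.43) were the others. Their calls were lost without Semaglutide 11 or 15 or calorie-restricted 7 or 8 for Herpud1 and without Semaglutide 31 or calorie-restricted 7 or 52 for Ddit4 (adjusted p up to 0.0966 and 0.0661). Trib3, Pnpla2 and Fbxo32 were the 3 of 19 insulin and FOXO1-controlled genes that passed, all higher. Fbxo32, a ubiquitin ligase subunit, had a log2 fold change of 0.95 at a low level, with a largest adjusted p of 0.15 over the alternatives, and lost the call without Semaglutide 15 or 51 or any calorie-restricted library.

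Heat shock chaperones had a median of -0.37 over 24 genes, and 5 were lower with none higher. Hsp90aa1, the inducible HSP90, was at 196, 165, 162 and 229.5 CPM in the Semaglutide livers, against 488, 554, 495 and 254 CPM in the calorie-restricted livers. Calorie-restricted library 79 was the lowest of its group and still above all Semaglutide libraries, and the log2 fold change was -1.25 ± 0.20 (adjusted p = 0.00126). Fkbp4, a co-chaperone of HSP90 in steroid receptor complexes, was at 231, 193, 175 and 219.6 CPM in the Semaglutide livers, against 350.2, 329, 335 and 264 CPM in the calorie-restricted livers, with -0.64 ± 0.13 (adjusted p = 0.00595). Against saline, the log2 fold change of Hsp90aa1 was 0.11 ± 0.20 (adjusted p = 0.817) in Semaglutide and 1.36 ± 0.21 (adjusted p = 0.000547) in calorie-restricted livers. That of Fkbp4 was 0.26 ± 0.13 (adjusted p = 0.282) in Semaglutide and 0.90 ± 0.13 (adjusted p = 0.000326) in calorie-restricted livers. Hsp90ab1, Hsph1 and Bag3 passed at -0.47, -0.78 and -0.75. From the list, 2 members passed without Semaglutide library 11 or 31 or calorie-restricted library 7, 8 or 52, where Hsp90aa1 and Fkbp4 kept their calls.

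Glucocorticoid-responsive and metal-binding genes overlapped in Mt1 and Mt2. Mt1, a metallothionein that binds zinc and copper, was at 24.4, 16.9, 31.7 and 13.8 CPM in the Semaglutide livers, against 1.81, 4.43, 6.33 and 4.68 CPM in the calorie-restricted livers. All Semaglutide libraries were above all calorie-restricted ones, by 2.33 ± 0.31 (adjusted p = 0.000182). Saline livers held far more, 173, 159, 229.9 and 185 CPM, so both treatments were lower than saline, with log2 fold changes of -3.11 ± 0.30 (adjusted p = 1.37e-05) for Semaglutide and -5.43 ± 0.34 (adjusted p = 2.20e-08) for calorie restriction. Mt2 was at 6.22, 3.11, 8.23 and 3.44 CPM with Semaglutide and 0.701, 2.29, 2.3 and 0.868 CPM with calorie restriction and differed by 1.77 ± 0.36 (adjusted p = 0.00664), beside 102, 65.3, 118 and 99.8 CPM in saline. Slc30a10, a manganese exporter, was at 10.1, 9.39, 11.8 and 23.2 CPM in the Semaglutide livers, against 60.1, 40.3, 42.7 and 47.5 CPM in the calorie-restricted livers and lower, with a log2 fold change of -1.8 ± 0.36 (adjusted p = 0.00603), with Semaglutide livers near saline (0.45 ± 0.36, adjusted p = 0.54). These were the 3 of 10 zinc and metallothionein genes that passed. Of 22 glucocorticoid-responsive genes, 3 were higher (Mt1, Mt2 and Fkbp5) and 4 lower (Tat, Dusp1, Ddit4 and Pdk4), so the list did not move in a single direction. Its median was -0.05. Dusp1, a phosphatase of MAP kinases, was at 9.07, 8.28, 7.32 and 14.7 CPM with Semaglutide and 29.9, 19.9, 29.4 and 17.7 CPM with calorie restriction and lower, with a log2 fold change of -1.3 ± 0.25 (adjusted p = 0.00366). Fkbp5, an inhibitor of the glucocorticoid receptor, had a log2 fold change of 1.11 ± 0.26 (adjusted p = 0.0175) and lost the call without calorie-restricted library 7, 8 or 79 (adjusted p up to 0.0572).

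The iron genes that passed were lower in Semaglutide livers. Tfrc, the transferrin receptor, was at 10.9, 11, 6.74 and 12.1 CPM in the Semaglutide livers, against 77.6, 75.1, 76.4 and 36.4 CPM in the calorie-restricted livers. The groups lay far apart although calorie-restricted library 79 was below its mates, and the log2 fold change was -2.7 ± 0.26 (adjusted p = 8.04e-06), a 6.5-fold lower level. Semaglutide livers were near the saline values of 15.3, 19.7, 13.2 and 15 CPM, with -0.63 ± 0.25 (adjusted p = 0.165), and calorie-restricted livers above them, with 2.07 ± 0.25 (adjusted p = 5.30e-05). Slc11a2, the divalent metal transporter, was at 13.7, 19.3, 18.7 and 21.8 CPM with Semaglutide and 31.1, 27.2, 33.2 and 40.3 CPM with calorie restriction and lower, with a log2 fold change of -0.84 ± 0.18 (adjusted p = 0.00797). Hfe2, or hemojuvelin, passed at -0.51 and lost the call without any library but Semaglutide 15 (adjusted p up to 0.143). These were the 3 of 18 iron genes that passed. None was higher and the median was -0.21.

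Of 29 lysosome and autophagy genes 3 were higher and 1 lower. Map1lc3b and Gabarapl1, ubiquitin-like proteins of the autophagosome, were both higher without overlap. Map1lc3b was at 195, 129, 143 and 130.2 CPM with Semaglutide and 75.4, 75.6, 89.5 and 93.1 CPM with calorie restriction, with a log2 fold change of 0.84 ± 0.16 (adjusted p = 0.00409). Gabarapl1 was at 383, 403, 510.3 and 372 CPM with Semaglutide and 149.8, 141, 212 and 302 CPM with calorie restriction, with a log2 fold change of 1.05 ± 0.21 (adjusted p = 0.00485). Lipa, the lysosomal acid lipase, was lower, at 178, 187, 151 and 176 CPM with Semaglutide and 272, 250.4, 351 and 318 CPM with calorie restriction, with a log2 fold change of -0.78 ± 0.18 (adjusted p = 0.0122). Wipi1 (0.82) was the remaining passing member, and lost the call without Semaglutide 15, 31 or 51 or calorie-restricted 7, 8 or 52 (adjusted p up to 0.117). Among 23 targets of NRF2, the oxidative stress factor, Gstp1, a glutathione transferase, was at 1092, 691, 1255 and 838 CPM in the Semaglutide livers, against 524, 405, 345 and 363 CPM in the calorie-restricted livers and higher by 1.24 ± 0.25 (adjusted p = 0.00698). Gsta2, of another class of the family, was at 7.65, 3.87, 13.7 and 3.94 CPM in the Semaglutide livers, against 24.3, 21.3, 27.8 and 19.7 CPM in the calorie-restricted livers and lower, with a log2 fold change of -1.68 ± 0.32 (adjusted p = 0.00455). For both, Semaglutide livers differed from saline (1.4 and -1.99 on the log2 scale) and calorie-restricted livers were near it (0.15 and -0.31). Gclc was the third passing member (-0.58), lost without any Semaglutide library or calorie-restricted 52 or 79 (adjusted p up to 0.153).

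Immune and cell type lists were read beside the same share of all genes. Il1r1, the interleukin 1 receptor, was the only passing member of 25 acute-phase genes, at 33.7, 49.2, 67.3 and 52.7 CPM with Semaglutide and 21.5, 28.3, 30.6 and 24.7 CPM with calorie restriction, higher by 0.95 ± 0.19 (adjusted p = 0.00691). Of 33 interferon-stimulated genes 3 were lower (Irgm1, Stat2 and Oasl1, at -0.76, -0.63 and -1.23). These calls were lost without Semaglutide 31 or calorie-restricted 8 in every case. They were also lost without Semaglutide 11 for Stat2 and Oasl1, calorie-restricted 79 for Stat2, and Semaglutide 15 and calorie-restricted 7 and 52 for Oasl1. None of the 19 antigen presentation, 21 CAR and PXR target, 23 cell cycle, 19 stellate cell, 17 endothelial, 9 cholangiocyte, 12 lymphocyte, 3 neutrophil or 5 erythroid genes tested passed in the edgeR test, beside 6.12% of all genes. Each list is small, so a count of 0 in a single list is near that share. These 9 lists, with 128 genes, were put together because none had a passing member. The 0 over all 128 was fixed by that choice and is not a result about these genes. An unadjusted p under 0.05 was found for 12 of the 128 (9.38%), beside 23.2% of all genes, a share that depends on the same choice. The DESeq2 Wald test called 1 cell cycle and 1 cholangiocyte gene. Of 15 Kupffer cell markers none passed, 1 had an unadjusted p under 0.05 and the DESeq2 Wald test called 1. They all had a positive log2 fold change, with a median of 0.51 and 0.23 without Semaglutide library 11. Their summed level ranged over 298.9 to 687.1 CPM in Semaglutide livers, 187.5 to 491.8 CPM in calorie-restricted livers and 422.5 to 630.8 CPM in saline livers. Clec4f, which marks these cells, was at 84.2, 33.7, 29.6 and 62 CPM with Semaglutide and 48.1, 16.3, 37 and 23.7 CPM with calorie restriction. Of 16 monocyte and lipid-associated macrophage markers Cd9 passed (0.84, with overlapping groups), and its call was lost without Semaglutide 11 or 31 or calorie-restricted 7, 8 or 52. Of 6 adipocyte markers Lipe and Adrb3 passed as higher (0.82 and 1.15), while Adipoq, Lep, Plin1 and Retn were too low to test. Both calls were lost without Semaglutide 31 or calorie-restricted 7, 8 or 52, and that of Lipe also without Semaglutide 15. Of the 6 adipocyte markers tested, 3 had a negative log2 fold change, down to -0.984. Their summed level was lower in Semaglutide livers without overlap, at 2886 to 4265 CPM, against 4764 to 7023 CPM in calorie-restricted livers. In saline livers it was 3724 to 5573 CPM. Lipe, at 7.42 to 15.8 CPM in the Semaglutide livers, made up little of this sum, which rests on other members. What part adipocyte RNA has in the sum was not tested. Of the hepatocyte markers only Tat passed, and the periportal and pericentral lists had 2 and 3 lower of 21 each, with none higher. The periportal genes were G6pc and Etnppl, and the pericentral ones Slc1a4, a neutral amino acid transporter (-1.22 ± 0.27, adjusted p = 0.0112), Oat and the WNT target Axin2, which lost the call without Semaglutide 11 or 31 or calorie-restricted 7, 52 or 79. What part cell composition has in these differences was not tested.

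**Figure D4:**
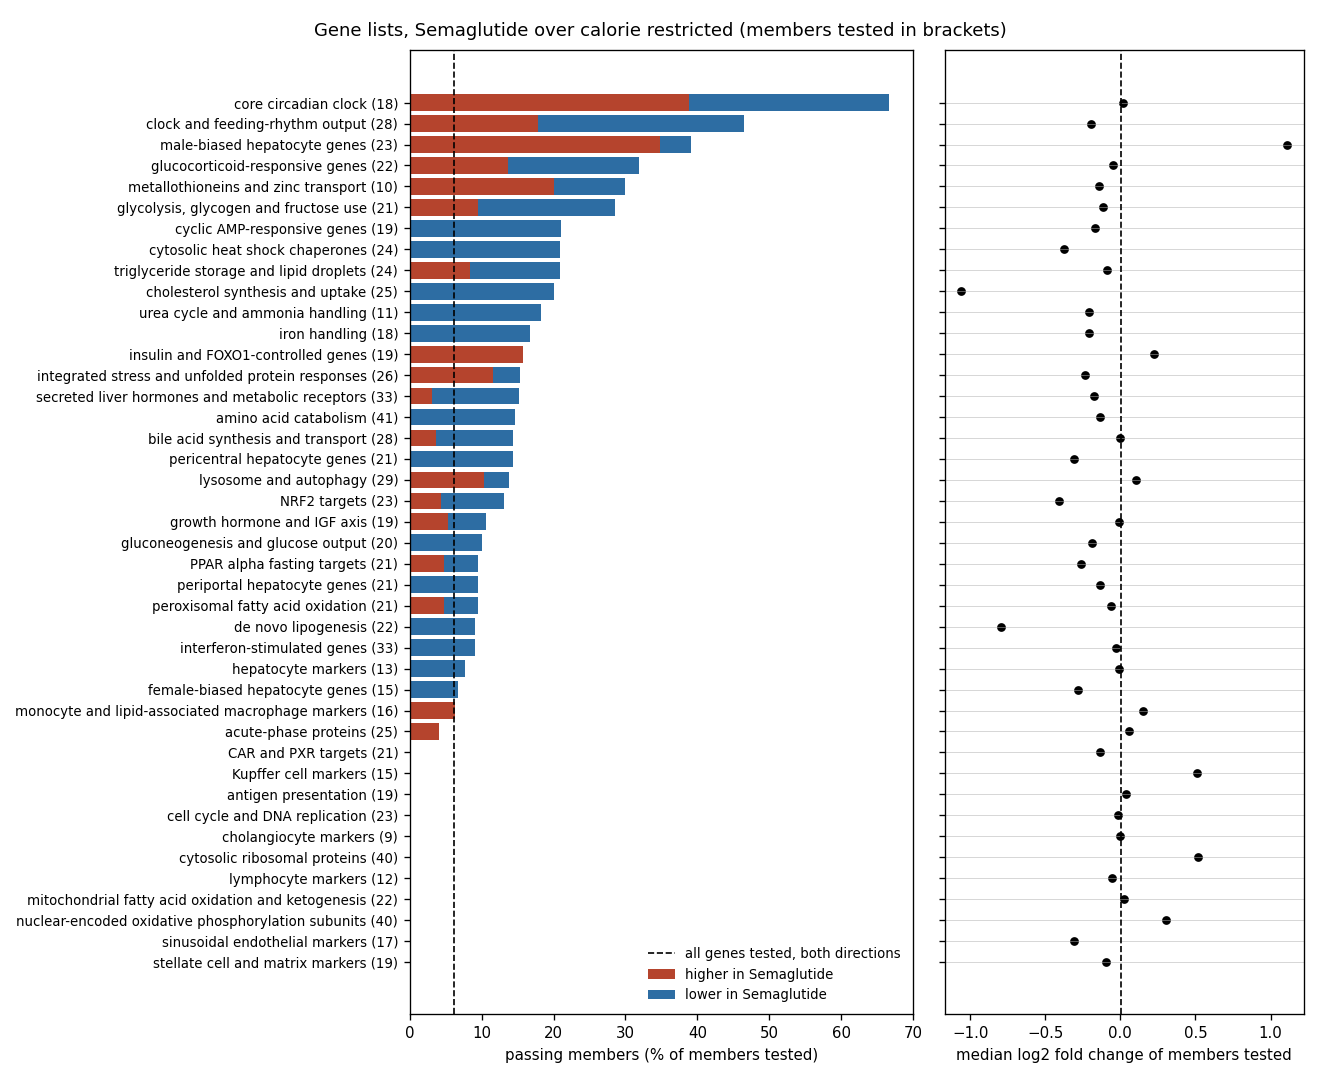
For each gene list (members tested in brackets), the left bars give the share of members that passed as higher (red) or lower (blue) in Semaglutide, with the dashed line at the 6.12% of all genes, and the right points give the median log2 fold change. The core clock list, with 12 of 18, is at the top, and the cholesterol synthesis and male-biased lists have the medians farthest from 0.

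Ribosomal protein and oxidative phosphorylation genes had positive medians that were smaller without Semaglutide library 11. The median log2 fold change of 40 ribosomal protein genes was 0.52, all 40 were positive and none passed. An unadjusted p under 0.05 was found for 22 of them (55%), beside 23.2% of all genes. Without Semaglutide library 11 the median was 0.18. For 40 nuclear-encoded oxidative phosphorylation subunits it was 0.31 and 0.02 without that library, again with none passing. Of these subunits 7 (17.5%) had an unadjusted p under 0.05, a share below that of all genes. The DESeq2 Wald test called no member of either list. Transcripts of such genes are generally short. Genes under 1 kb of exon had a median log2 fold change of 0.391 over 427 genes (27 higher, 3 lower), and those over 4 kb of -0.105 over 7031 genes (151 higher, 243 lower). Across genes, the correlation of a library's deviation from the mean with exon length was -0.442 in Semaglutide library 11 and -0.122 to 0.166 in the other Semaglutide libraries, against 0.0102 to 0.274 in the calorie-restricted libraries. With the length trend of each library removed, 900 genes passed, of which 698 were among the 790. In that fit the median was 0.305 for the ribosomal protein genes and 0.0733 for the oxidative phosphorylation subunits. What part transcript length has in these medians was not tested.

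**Figure D5:**
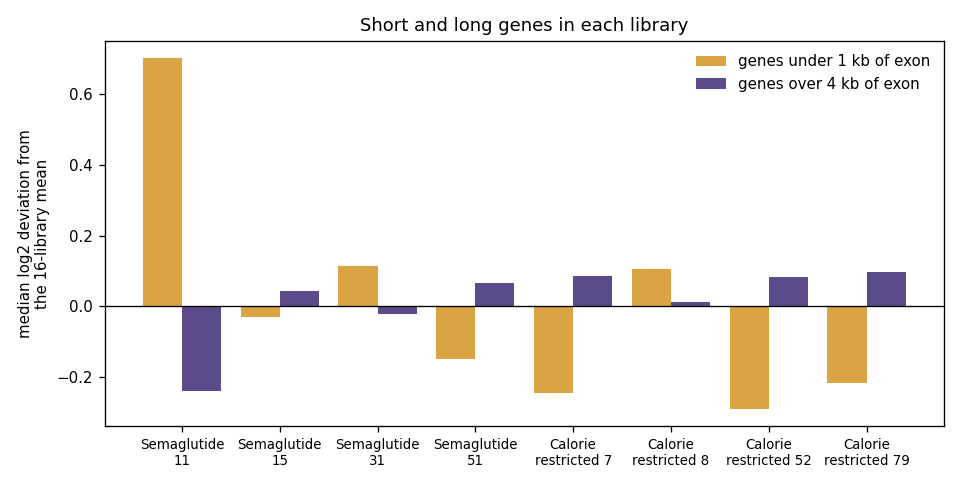
Median log2 deviation from the mean of all 16 libraries for genes under 1 kb of exon (yellow) and over 4 kb (purple), in each Semaglutide and calorie-restricted library. Semaglutide library 11 has the largest excess of short genes, 0.701, and calorie-restricted libraries 7, 52 and 79 have a deficit of 0.216 to 0.289.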

How the data were processed

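Liver RNA of 16 mice was extracted with Trizol from frozen tissue and made into poly(A)-selected directional libraries, per the labels' protocols. Per the submitters' processing notes, TopHat2 2.1.1 and featureCounts were used with mm10 as the build. The annotation, strand setting and counting options are not given in the sources used here, so genes that overlap others or have close copies are uncertain. The deposited values were raw counts per gene, whole numbers with no normalization by the authors. Symbols and exon lengths came from GENCODE M21 (GRCm38), which covered 45229 of 46078 identifiers; 22577 genes had no count in any library. In R 4.3.3 with edgeR 4.0.16, filterByExpr on the 4 groups left 12910 genes, TMM factors scaled the libraries, and a single robust glmQLFit gave each group 1 mean over all 16 libraries and glmQLFTest the p-values. Biological variation had a common coefficient of 0.24. No pair of libraries was identical. On simulated counts for the Semaglutide and calorie-restricted comparison, with 200 of 12910 genes changed, 98% of 4-fold and 62% of 2-fold changes were recovered, all with the right sign, and 7.51% of the calls were false. The simulated spread of a gene followed only the trend with expression level. No outlying library and no length trend were simulated, so these shares hold for such counts only.

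The comparison, gene lists and naming rule were chosen with earlier results of these data known, so lists are described by counts and medians and were not tested as sets. The rule named the 12 largest increases and the 12 largest decreases among passing genes with separate groups and a mean of at least 2 CPM in whichever group was higher, leaving out predicted genes and shared symbols, up to 6 members of each list with the smallest p, and a fixed panel. Alternatives were DESeq2 1.42.0 size factors and its Wald test, upper quartile factors, limma 3.58.1 voom, other filters on low counts, the 20 most abundant genes left out, a fit of the 2 groups alone, and each library left out. A fit with each library's loess trend on exon length removed was chosen once the data had been seen. Intervals of 95% are the log2 fold change ± 1.96 SE, which takes no account of the limited degrees of freedom, so they are somewhat too narrow. Some items of the lists are not reported here.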

Additional observations from a re-analysis of the deposited data

Results flagged for a closer look

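Within the 4 libraries of a group, a library was singled out where its gap to the nearest other, as a share of the group range, passed the 95% critical value of the Dixon test. For the 136 named genes this gave 21 of 272 groups, and chance gives about 1 in 20. Values are in CPM. Semaglutide library 11 was highest for Krt23 at 13.2, against 8.36 to 8.84, lowest for Pnpla2 at 57.5, against 83.5 to 88.3 and highest for Mup3 at 23909, against 12048 to 13916 in the rest of its group. That library was also highest for Trib3 at 19.3, against 11.2 to 11.9 and lowest for Lipe at 7.42, against 14.4 to 15.8 in the rest of its group. Semaglutide library 15 was highest for Pdk4 at 10.6, against 1.17 to 2.07 in the rest of its group. Semaglutide library 31 was highest for Cyp2a22 at 8.1, against 3.0 to 3.87 in the rest of its group. Semaglutide library 51 was highest for Arntl at 2.57, against 0.225 to 0.518, highest for Gldc at 115, against 56.3 to 61.5 and highest for Lepr at 23.4, against 8.7 to 9.8 in the rest of its group. Calorie-restricted library 8 was highest for Mup17 at 54.4, against 6.66 to 13.6 and highest for Upp2 at 231, against 128 to 144 in the rest of its group. Calorie-restricted library 79 was lowest for Nr1d2 at 23.4, against 41.2 to 44.6, highest for Pitx3 at 6.95, against 1.37 to 2.22 and highest for Hmgcs1 at 784, against 193 to 218 in the rest of its group. That library was also highest for Pnpla2 at 56.5, against 34.2 to 36.3, highest for Txnip at 65.6, against 36.1 to 39.8 and lowest for Tfrc at 36.4, against 75.1 to 77.6 in the rest of its group. That library was also highest for Cd9 at 11.6, against 7.03 to 7.65, highest for Lipe at 8.15, against 7.12 to 7.26 and highest for Srebf2 at 73, against 40.2 to 42.4 in the rest of its group. Of these values, 9 were in calorie-restricted library 79, which held 784 CPM of Hmgcs1.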

How the results depend on the processing

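No paired analysis was possible because the labels give no pairing of libraries between the groups. None of the 790 genes changed direction in any of 17 alternatives. The count of passing genes was 1291 with the DESeq2 Wald test and 445 to 963 over the fits without 1 library, and 622 to 900 under the other alternatives. Of the 790, 450 remained without Semaglutide library 11 and 698 with the length trend removed. Against saline, the Wald test gave 982 for Semaglutide and 1528 for calorie restriction, a fit of only those 2 groups gave 2569 for calorie restriction, and the fits without 1 library gave 372 to 508 and 502 to 849. The fit without calorie-restricted library 7 gave the 502. Of 119 named genes that passed, 70 passed under every alternative. Some calls that depended on single libraries were also lost under other alternatives. With upper quartile factors this held for Plin5, Cd36, Gclc and Hfe2. With limma-voom it held for Plin5, Cd36, Gclc, Sqle, Mup18, Oasl1 and Fbxo32. Uncalled genes near 0 changed sign. Over the fits without 1 library Per1 ran from -0.239 to 0.368, Cry2 from -0.0844 to 0.166, Bhlhe40 from -0.162 to 0.205 and Srebf1 from -0.173 to 0.101. Without the low-count filter Bhlhe40 was -0.00108 and Srebf1 -0.00623, with limma-voom Srebf1 -0.0106. The cause was not tested. In simulated counts 62% of 2-fold changes were recovered, and smaller ones were not simulated.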

Other observations

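Several of the genes with the smallest p lay outside the lists and the naming rule and were chosen after their values were seen. Ddc, the aromatic amino acid decarboxylase that makes dopamine and serotonin from their precursors, had the smallest p of all 12910 genes. It was at 17.7, 12.5, 15.1 and 20.7 CPM in the Semaglutide livers, against 86.2, 70.8, 70.9 and 79.6 CPM in the calorie-restricted livers. Saline livers lay between the treatments, at 33, 26.7, 26.2 and 26.5 CPM, and the log2 fold change of Semaglutide over calorie restricted was -2.22 ± 0.15 (adjusted p = 1.95e-07) by edgeR's quasi-likelihood test. Gpcpd1, a phosphodiesterase that frees choline from glycerophosphocholine, was at 83.8, 150.4, 130.0 and 137 CPM in the Semaglutide livers, against 30.2, 32.9, 25.7 and 19.3 CPM in the calorie-restricted livers, higher by 2.21 ± 0.24 (adjusted p = 2.51e-05), beside 153, 169, 159 and 199 CPM in saline. Slc5a6, the transporter of biotin and pantothenate, was at 12.5, 15.4, 23.5 and 14.3 CPM with Semaglutide and 4.5, 3.36, 4.82 and 4.41 CPM with calorie restriction and higher by 1.94 ± 0.21 (adjusted p = 2.51e-05).

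Abcg5, one subunit of the exporter that moves sterols into bile, was at 148, 182, 183 and 158 CPM in the Semaglutide livers, against 57.9, 77.4, 63.4 and 61.4 CPM in the calorie-restricted livers. It was higher without overlap by 1.37 ± 0.16 (adjusted p = 3.89e-05), and relative to saline it was higher in Semaglutide (0.75 ± 0.15, adjusted p = 0.00754) and lower in calorie-restricted livers (-0.61 ± 0.15, adjusted p = 0.0201). Ppp1r10, which anchors protein phosphatase 1 in the nucleus, was at 10.7, 9.66, 14.6 and 12.6 CPM with Semaglutide and 76.9, 50.2, 50.3 and 32.8 CPM with calorie restriction and lower, with a log2 fold change of -2.14 ± 0.26 (adjusted p = 8.72e-05). These 5 genes passed in all 17 alternatives.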
